A study of Danio rerio with 16 samples.

Results

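The cytoskeletal genes described here were measured in fast muscle of adult zebrafish that had been made to swim. They comprise the tubulins with their folding, nucleating and end-binding partners, the kinesin and dynein motors, the keratins, vimentins and lamins, the regulators of actin filaments, and the septins. Members were taken by gene symbol: a probe counted when the RefSeq accession in the scanner files maps to a zebrafish symbol of these families. The rule gave 72 genes on 112 probes, out of 5952 genes on 9104 named probes and 43803 non-control probes in all. Of the 72 genes, 30 belong to microtubules, 16 to intermediate filaments, 19 to actin regulation and 7 to the septins. No probe carried the symbol of lmna, ezr, map1a or map1b.

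Exercised fish swam against a current of 0.4 m/s, 6 hours each day, and non-exercised fish were held at 0.1 m/s, both over 20 experimental days. All were adult wild-type zebrafish bought from a pet shop, and the labels do not give their sex. Each group lived in a swim tunnel of its own, so training and tunnel cannot be told apart. Fast muscle of the dorsal epaxial part of the trunk was taken from 8 exercised and 8 non-exercised fish, and the RNA of each fish was hybridised to an array of its own, in 1 colour.

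Microtubules are hollow filaments of alpha- and beta-tubulin that nucleate on gamma-tubulin and serve as tracks for kinesin and dynein motors. Intermediate filaments are the tough elements of the cell and of its nucleus: keratins are typical of epithelia, vimentin of connective tissue and other mesenchymal cells, and lamins line the nuclear envelope of nearly every cell. Actin filaments outside the sarcomere are branched by the Arp2/3 complex, cut by cofilin and fed with monomers by profilin. In muscle these filaments take part in the positioning of nuclei and in links between myofibrils and the membrane, and muscle tissue also holds connective tissue, vessels, nerve and immune cells that carry the same genes. In such whole tissue RNA, fewer cells of a type and less RNA per cell cannot be told apart.

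Levels are given as the log2 processed signal of a probe minus the 75th percentile of its array, so that 0 marks the 75th percentile, and levels of different probes are not set against each other. The share of probes well above background ranged from 21.1% to 54.0% over exercised fish and from 33.7% to 48.5% over non-exercised fish (exact permutation test, two-sided, p = 0.524). The 4 slides held 4 arrays each, slides 3 and 4 all exercised fish and slides 1 and 2 all non-exercised fish, and no scan day was common to the groups. The effect of the scan day and that of training cannot be told apart. Within the exercised group slide 4 had a lower share of probes well above background (30.1%) than slide 3 (48.3%). Of 13 fast muscle marker genes with a probe, 11 were well above background on all 16 arrays. The arrays of 3 fish stood apart from the rest by genes of the oocyte, a list written after the data were seen. All 18 oocyte genes with a probe (of 21 listed) were well above background in exercised fish 1 and in non-exercised fish 6, 14 were in non-exercised fish 1, and 0 to 8 were in each of the other 13 fish. The egg coat gene zp2.3 reached 7.76 in exercised fish 1, 7.63 in non-exercised fish 6 and 5.02 in non-exercised fish 1, against -3.55 to 1.92 in the others. The source of this signal was not tested, and counts are given below without those arrays as well.

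Few of the cytoskeletal genes passed the test between exercised and non-exercised fish, and most of those that did were tubulins and actin regulators with lower levels in exercised fish. With limma, and p-values adjusted by Benjamini-Hochberg across every non-control probe, 2 of the 72 genes were called higher in exercised fish (krt15 and septin5a) and 7 lower (tuba1b, tubb5, tubb4b, lmnb2, arpc5la, wdr1 and pfn2a), at an adjusted p under 0.05 on the brightest probe of each gene. That is 2.78% of the genes higher and 9.72% lower, beside 3.21% higher and 3.01% lower among all 5952 named genes. By probes, 2 of 112 were called higher and 11 lower, beside 4.58% and 1.79% of all non-control probes. With each array shifted to its median in place of its 75th percentile, 110 named genes were called higher and 299 lower, beside 191 and 179 here, and 1408 probes higher and 1426 lower, beside 2005 and 785. The median log2 fold change was -0.54 over the 72 genes and 0.07 over all named genes. It was 0.26 over all non-control probes and 0.01 after the median shift, so group medians are also given relative to all named genes. None of the 9 calls held with the slide as a random block (adjusted p from 0.269 to 0.562 with an estimated correlation between arrays of a slide). In that fit 3 of all 5952 named genes were called higher and 0 lower. Without exercised fish 1 and non-exercised fish 6 the counts were again 2 and 7, with 8 of the 9 genes shared: tuba1b was lost (log2 fold change -1.44, adjusted p = 0.0699, beside -1.70 on all 16 arrays) and lmnb1 was added (log2 fold change -1.19, adjusted p = 0.0469). With non-exercised fish 1 left out too, 2 were called higher and 6 lower, tuba1b included, all 8 among the 9. Calls over all named genes are not given for the fits without oocyte-rich arrays, so these member counts have no share beside them.

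**Figure D1:**
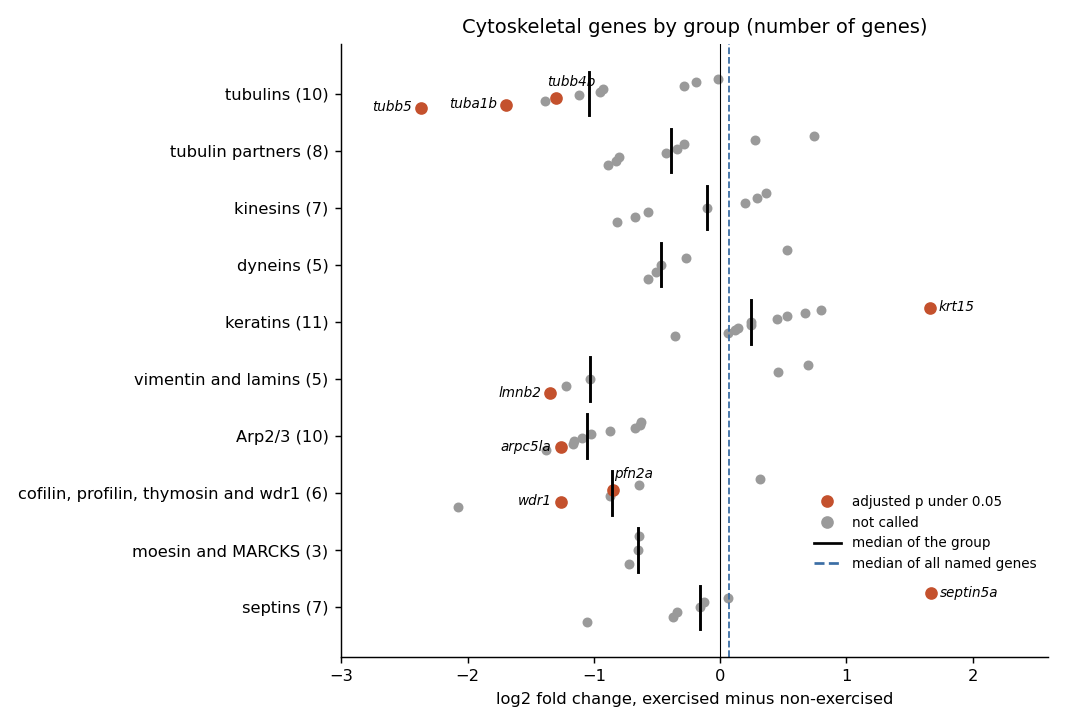
Each point is a gene on its brightest probe, placed by its log2 fold change (exercised minus non-exercised, 8 fish each) within its group, with the number of genes in brackets. All 10 tubulins and all 10 Arp2/3 genes lie left of 0, while 10 of 11 keratins lie right of it. Among these, the tubulin tuba7l and the keratin krt95 were well above background on no array, so their side of 0 carries no weight. The 9 called genes are named, and the dashed line is the median of all named genes at 0.07.

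All microtubule genes that passed the test were tubulins. Of 10 tubulin genes, 3 were called lower and 0 higher, and all 10 had a negative log2 fold change, with a median of -1.04, or -1.11 relative to all named genes. The signs of all 10 were also negative after normexp background correction, without background correction, and after quantile, median and cyclic loess normalization. The median shift lowers all genes alike, so negative signs could only stay negative there. All 10 also lay below the median of all named genes under each of these scalings. Of the 10, tuba7l (-0.02) was well above background on no array. The 9 well above background on at least 8 arrays were all negative. Without exercised fish 1 and non-exercised fish 6, 9 of the 10 were negative, with a median of -0.77 and 2 called.

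tubb5, a beta-tubulin, showed the biggest difference of the called genes. Its level ran from -0.84 over a median of -0.25 to 2.17 in 7 exercised fish, against 0.95, 2.80 and 4.29 as the lowest, median and highest of 8 non-exercised fish. The spot of exercised fish 7 was an outlier and was left out. Of the 7 exercised fish, 6 lay below every non-exercised fish, and exercised fish 6 alone reached into their range. The log2 fold change was -2.37 ± 0.54 (SE), a 5.17-fold lower level (limma, adjusted p = 0.0142). On the further probe it was -1.99 ± 0.65 and not called (adjusted p = 0.0758). Exercised fish 7, kept on that probe, had 2.36 there, the highest of its group. Exercised fish 6 had 1.22, and the median of 7 non-exercised fish was 1.86.

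tuba1b, an alpha-tubulin, was called lower on each of its 2 probes. Its level was -0.03 at the lowest, 0.86 at the median and 2.55 at the highest in exercised fish, against 1.07, 2.59 and 3.91 in non-exercised fish. The groups overlapped, with 4 of 8 exercised fish below every non-exercised fish, exercised fish 6 and 7 the highest of their group and non-exercised fish 1 and 4 the lowest of theirs. The log2 fold change was -1.70 ± 0.45 (adjusted p = 0.0289). On the dimmer probe the signal was well above background on 0 exercised arrays and 5 non-exercised arrays. Only a bound can be given there, at least 1.57-fold lower (adjusted p = 0.0364). The call on the brightest probe was lost after cyclic loess normalization (adjusted p = 0.0521), with slide 4 as the only exercised slide (adjusted p = 0.112) and without exercised fish 1 and non-exercised fish 6 (-1.44, adjusted p = 0.0699). With all 3 oocyte-rich arrays left out tuba1b was called (-1.68, adjusted p = 0.0404).

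tubb4b, another beta-tubulin, was called on each of its 4 probes, with log2 fold changes from -1.10 to -1.30. On the brightest probe exercised fish had 4.09, 5.17 and 5.58 as lowest, median and highest, against 4.97, 6.51 and 7.09 in non-exercised fish. The exercised fish lay close together, and 7 of 8 non-exercised fish lay above all of them, with non-exercised fish 8 the exception. The difference of -1.30 ± 0.31 (adjusted p = 0.0162) was not called after normexp correction (adjusted p = 0.0521), after quantile normalization (adjusted p = 0.11) or with slide 3 as the only exercised slide (adjusted p = 0.0729).

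The other tubulins did not pass the test. tuba5 had 2.74, 3.45 and 5.45 in exercised fish, against 3.96, 4.78 and 6.21 in non-exercised fish, with 6 of 8 exercised fish below every non-exercised fish and exercised fish 6 again the highest of its group (-1.39 ± 0.42, adjusted p = 0.0557). tuba8l3 differed by -0.95 ± 0.31 (adjusted p = 0.075) and tuba8l4 by -0.93 ± 0.34 (adjusted p = 0.127). tuba8l2 of the same subfamily differed by only -0.29 ± 0.36, and its exercised fish spread over 2.89 to 4.97, against 3.19 to 5.32 in non-exercised fish. tubg1, the gamma-tubulin that seeds new microtubules, had -0.19 ± 0.21. tuba4l varied more between fish of a group than between groups (-1.12 ± 1.12): non-exercised fish 6 and 1 stood at 6.25 and 4.05, above 1.61 in the highest of 7 exercised fish, and both are among the oocyte-rich arrays, as is exercised fish 1, whose outlier spot was left out. tuba7l was well above background on no array.

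**Figure D2:**
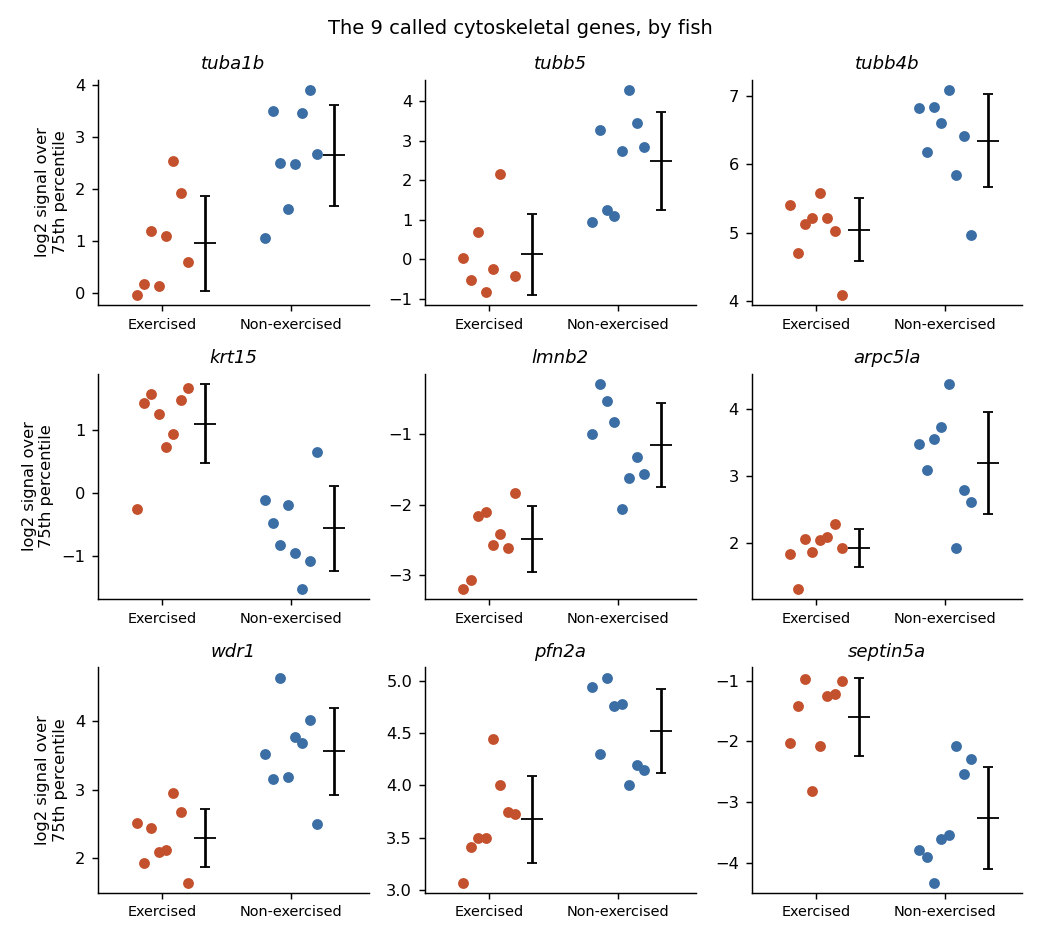
Each panel shows 1 of the 9 called genes, with a point per fish (log2 signal over the 75th percentile of the array; exercised left, non-exercised right) and the mean with its SD beside the points (n = 8 each, 7 exercised fish for tubb5). Only krt15 and septin5a stand higher in exercised fish, and in every panel the groups overlap by at least 1 fish.

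Genes for proteins that assemble tubulin and bind its ends did not pass the test. Of the 8 tubulin partners 0 were called, 6 had negative and 2 positive fold changes, and the median was -0.39. The 2 positive ones were the dim stathmins stmn2a and stmn4. The 5 partners well above background on at least 8 arrays were all negative, with a median of -0.43. With the test limited to such probes 1 of the 5 was called lower. mapre1b, which encodes an end-binding protein that tracks growing microtubule tips, had a median of 1.56 in exercised fish, against 2.54 in non-exercised fish (-0.83 ± 0.28, adjusted p = 0.0858). Its further probe, well above background on 0 arrays, gave 0.23 ± 0.35. Its paralogue mapre1a gave -0.80 ± 0.41 and mapre3b -0.29 ± 0.39. tbcb, a cofactor in the folding of alpha-tubulin, gave -0.43 ± 0.45, and tubgcp2 of the gamma-tubulin complex -0.34 ± 0.28. The stathmins stmn2a, stmn4 and stmn4l, which bind free tubulin in neurons, were well above background on 0 to 3 arrays of a group. No fold is given. Further genes of the pathway came from a list of 55 genes for microtubule-associated proteins, dynactin, prefoldin and the CCT chaperonin. Of 25 with a probe (tubgcp2 among them), 3 were called lower and 0 higher, with a median of -0.28. The 3, named after their values were seen, were cct7 (2.66-fold lower, adjusted p = 0.016), cct3 (1.98-fold, adjusted p = 0.0364) and pfdn6 (1.99-fold, adjusted p = 0.0396), whose proteins fold newly made tubulin and actin.

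Of the motors, none was called. The 7 kinesins had a median of -0.10, the value of the dim kif5ab, and the 5 dyneins of -0.47. Only 3 kinesins and 2 dyneins were well above background on at least 8 arrays, with medians of -0.68 and -0.37. dynlrb1, a light chain of cytoplasmic dynein, was 0.57 to 1.52 in exercised fish, against 1.02 to 1.71 in non-exercised fish (-0.47 ± 0.21, adjusted p = 0.231), and dynlt3, another light chain, gave -0.27 to -0.72 over its 3 probes. kif2a, which takes microtubules apart at their ends, gave 0.29 ± 0.26. dync2li1, of the ciliary dynein, and dynlt5 were well above background on no array. dynll2a, well above background on 1 exercised array and 5 non-exercised arrays, gave -0.51 ± 0.59. kif26aa and the transport kinesin kif5ab were dim as well, and kif5ab was well above background on 0 exercised arrays and 1 non-exercised array.

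The kinesins of cell division varied widely between fish of a group. kif11, which separates the spindle poles, kif4, which binds chromosome arms, and kif23, which acts in the final cut between daughter cells, were each highest in exercised fish 1. kif11 stood at 2.61 in exercised fish 1 and from -3.48 to 0.55 in the other exercised fish, against 1.90 in non-exercised fish 6, 1.13 in non-exercised fish 7 and -3.61 to 0.22 in the other non-exercised fish. kif4 reached 2.24 in exercised fish 1, against 1.86 in non-exercised fish 6, and kif23 1.53 against 0.92. kif18a, a motor that aligns chromosomes, was well above background on 1 array of each group. The summed signal of the 12 proliferation genes with a probe, in multiples of the 75th percentile, was highest in the same fish. It was 164.5 in exercised fish 1, against 114.7 in non-exercised fish 6, and from 4.79 to 28.6 in the other fish. Exercised fish 1 and non-exercised fish 6 had the highest oocyte signal too. Single genes did not all share this order: for pcna, 2 exercised fish lay above every non-exercised fish. Over all fish the differences were -0.68 ± 0.84, -0.82 ± 0.85 and -0.57 ± 0.82 for kif11, kif4 and kif23, and without exercised fish 1 and non-exercised fish 6 they were -0.87, -0.99 and -0.74, still not called.

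Among the intermediate filaments, a keratin and a B-type lamin passed the test, in opposite directions. Of 11 keratins, 1 was called higher and 0 lower, and 10 had positive fold changes. The median of the 11 was 0.25, or 0.18 relative to all named genes. The positive ones include krt95 (0.45), which was well above background on no array. Of the 9 keratins well above background on at least 8 arrays, 8 were positive, with a median over the 9 of 0.245. The median shift moved all genes down alike (all named genes to a median of -0.18), which left 5 of the 11 positive. Relative to all named genes the keratin median was 0.17 there, and 9 of 11 lay above the all-gene median under either scaling.

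krt15, a type I keratin of epithelial cells, rose in exercised fish. Its level was -0.25, 1.33 and 1.66 as lowest, median and highest of the exercised fish, against -1.52, -0.66 and 0.64 in non-exercised fish. All but exercised fish 1 lay above every non-exercised fish, and the probe was well above background on all 16 arrays. The log2 fold change was 1.66 ± 0.33, a 3.16-fold higher level (adjusted p = 0.00567), and it ranged from 1.38 to 1.78 over 5 other scalings, called under each. With slide 3 as the only exercised slide it was 1.56 and not called.

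The keratins of highest signal did not pass the test. krt4, a type II keratin of surface epithelia, had 3.56, 4.45 and 6.43 in 7 exercised fish, against 3.13, 3.68 and 4.83 in non-exercised fish, and its 4 probes gave 0.72 to 0.80 (brightest, adjusted p = 0.246). Exercised fish 6 stood far above the rest of its group. krt8, the type II keratin of simple epithelia, was nearly level, from 6.11 to 7.32 in exercised fish, against 6.41 to 7.15 in non-exercised fish (0.14 ± 0.22). Its type I partners krt18a.1 and krt18b gave 0.12 ± 0.28 and -0.36 ± 0.34. On the further probe of krt18a.1 the value was -0.11 ± 0.28. krt91 gave 0.67 ± 0.48 and krt5, a keratin of the basal epidermis in mammals, 0.25 ± 0.69. krt5 turned to -0.33 without exercised fish 1 and non-exercised fish 6. Non-exercised fish 6 had 0.86, beside 3.21 to 6.24 in the other non-exercised fish. cyt1, krt1-19d and krt97 gave 0.06 to 0.53, and krt95 was well above background on no array. Of 13 epidermal genes other than keratins with a probe (of 24 listed), 0 were called and the median was -0.05. Of these cldne alone was well above background on no array. Their summed signal ran from 51.6 to 201 in exercised fish (median 107.5), against 86.2 to 176.4 in non-exercised fish (median 151.3). The brightest gene, icn, weighed most in this sum, with a mean log2 level of 5.98 in exercised and 6.68 in non-exercised fish. Of the 13 genes, 5 had positive and 8 negative fold changes, and 3 were well above background on all 16 arrays. Their part in the keratin values was not tested.

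lmnb2, a B-type lamin of the nuclear envelope, fell in exercised fish. Its level was -3.20, -2.49 and -1.84 as lowest, median and highest in exercised fish, against -2.06, -1.17 and -0.28 in non-exercised fish, and 7 of 8 exercised fish lay below every non-exercised fish. The log2 fold change was -1.35 ± 0.29 (adjusted p = 0.00964). The probe was dim, well above background on 1 exercised array and 7 non-exercised arrays, and the log2 fold change was -0.79 after normexp correction. lmnb1, the other B-type lamin, gave -1.03 ± 0.39 (adjusted p = 0.131), and 6 of 8 exercised fish lay below every non-exercised fish while exercised fish 1, at 1.58, lay above all of them. lmnl3, named for a lamin of frog oocytes, stood at 4.59 in exercised fish 1, against 3.79 in non-exercised fish 6 and 0.80 in non-exercised fish 1, and at or below -0.75 in the other 13 fish.

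The vimentin copies differed in direction without a call. vim had 2.26, 3.06 and 3.40 in exercised fish, against 1.94, 2.23 and 3.03 in non-exercised fish. All 8 exercised fish lay above the non-exercised mean and 4 above every non-exercised fish, with non-exercised fish 8 highest of its group (0.69 ± 0.25, adjusted p = 0.104). With probes limited to those well above background on at least 8 arrays, and after quantile or cyclic loess normalization, vim was called higher. viml gave -1.22 ± 0.49 (adjusted p = 0.162) and was well above background on 1 exercised array and 4 non-exercised arrays. Of 8 fibroblast genes with a probe, 3 were called higher and 0 lower. Their summed signal was 56.0 to 228.9 in exercised fish (median 175.3), against 41.4 to 273.1 in non-exercised fish (median 71.5), with non-exercised fish 8 the highest of all. Their part in the vim values was not tested. Of the 3 further genes of intermediate filaments and plakins with a probe, 0 were called, and 2 were well above background on no array. The other was desma, a desmin, named after its value was seen. It gave -0.78 ± 0.28 (adjusted p = 0.112), and all 7 exercised fish measured lay below each of 7 non-exercised fish.

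The actin regulators had the lowest median of the 4 classes. Of 19 genes, 3 were called lower and 0 higher, 18 had negative fold changes under each of 6 scalings, and the median was -0.87, or -0.94 relative to all named genes. Under each of the 6 scalings 18 of 19 also lay below the median of all named genes. Without background correction and with the median shift the class median was -0.82 and -1.12, or -0.72 and -0.94 relative to all named genes. Without exercised fish 1 and non-exercised fish 6 it was -0.80.

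All 10 genes of the Arp2/3 complex, which nucleates branches on actin filaments, had a negative fold change, from -0.62 to -1.38, with a median of -1.06. The sign was negative for all 10 under every scaling and with each exercised slide alone. In each of those fits all 10 also lay below the median of all named genes. By slide the medians were -1.15 (slide 3) and -0.81 (slide 4), or -0.925 and -0.973 relative to all named genes. Only arpc5la was called. The unadjusted p was under 0.05 for all 10 genes, as for 1367 of 5952 named genes, and for 4 of 10 without exercised fish 1 and non-exercised fish 6 (1452 of 5952 named genes). After quantile normalization it was under 0.05 for 6 of 10 (1487 of 5952), and after cyclic loess for 4 of 10 (1624 of 5952). With slide 3 alone it was so for 7 of 10 (1323 of 5920), and with slide 4 alone for 3 of 10 (1959 of 5952). With the slide as a random block it was so for 1 of 10 (460 of 5952). The other scalings kept all 10. With all 3 oocyte-rich arrays left out the unadjusted p was under 0.05 for 7 of 10 (1361 of 5952 named genes), with a median fold change of -1.05.

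arpc5la, a paralogue of the smallest subunit, had 1.32, 1.99 and 2.28 in exercised fish, against 1.93, 3.27 and 4.37 in non-exercised fish. The exercised fish lay in a narrow band, and 7 of 8 non-exercised fish lay above it, with non-exercised fish 6 inside it. The log2 fold change was -1.26 ± 0.30 (adjusted p = 0.0174), and it was not called with slide 3 as the only exercised slide (adjusted p = 0.0542). The other forms of this subunit, arpc5a and arpc5b, gave -1.09 ± 0.44 (adjusted p = 0.167) and -1.38 ± 0.50 (adjusted p = 0.117), with wider spreads: arpc5b ran from -1.25 to 1.45 in exercised fish, against -0.34 to 3.31 in non-exercised fish.

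The remaining subunits overlapped between the groups. actr2a and actr3, the actin-related pair at the base of each branch, gave -1.16 ± 0.48 and -0.87 ± 0.34. The scaffold subunits arpc2 and arpc4 gave -0.67 ± 0.31 and -1.02 ± 0.44, and arpc3 -0.63 ± 0.29. The paralogues arpc1a and arpc1b gave -0.62 ± 0.25 and -1.16 ± 0.52. arpc1a was 3.44 to 4.39 in exercised fish, against 3.91 to 5.05 in non-exercised fish (adjusted p = 0.154). arpc1b was 1.04 to 4.00 in exercised fish, against 1.64 to 5.14 in non-exercised fish (adjusted p = 0.217).

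wdr1, which helps cofilin to take filaments apart, fell in exercised fish. Its level was 1.65, 2.28 and 2.95 in exercised fish, against 2.51, 3.60 and 4.63 in non-exercised fish, all of which but fish 8 lay above every exercised fish. The log2 fold change was -1.26 ± 0.29 (adjusted p = 0.0147), and it missed the threshold after normexp correction (adjusted p = 0.0583). pfn2a, a profilin that hands actin monomers to growing ends, had 3.07, 3.61 and 4.44 in exercised fish, against 4.00, 4.53 and 5.03 in non-exercised fish, with 6 of 8 exercised fish below every non-exercised fish and exercised fish 5 the highest. Its change of -0.85 ± 0.25 stood just inside the threshold (adjusted p = 0.0498), and it was not called with slide 4 as the only exercised slide (adjusted p = 0.175), without exercised fish 8 (0.0684) or without the 3 oocyte-rich arrays (0.0944).

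The cofilins, which sever filaments, did not pass the test. cfl1 had 4.69, 5.21 and 6.31 in exercised fish, against 5.63, 5.96 and 7.11 in non-exercised fish, 6 of 8 exercised fish lying below every non-exercised fish (-0.87 ± 0.31, adjusted p = 0.113). cfl2, the muscle cofilin of mammals, had 6.12 to 7.87 in exercised fish, against 7.33 to 8.53 in 6 non-exercised fish (-0.64 ± 0.31, adjusted p = 0.265). cfl1l was the only actin regulator with a positive fold change (0.32 ± 0.52). tmsb, a thymosin beta that holds monomers in reserve, ran from -3.92 to -0.58 in 7 exercised fish, against -4.15 to 2.76 in non-exercised fish. It was well above background on 3 exercised arrays and 5 non-exercised arrays (-2.08 ± 0.97, adjusted p = 0.243). msna, the moesin that ties actin to the membrane, had 2.64, 3.85 and 4.21 in exercised fish, against 4.04, 4.40 and 4.94 in non-exercised fish (-0.72 ± 0.26, adjusted p = 0.111), and exercised fish 1 was its lowest. The MARCKS-like genes marcksl1a and marcksl1b gave -0.64 ± 0.30 and -0.65 ± 0.31. Of 29 further actin regulators with a probe (of 77 listed), 1 was called higher and 0 lower (tmod4, a tropomodulin of the thin filament ends, named after its value was seen), with a median of -0.33.

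Of the 7 septins, GTP-binding proteins that form rings and filaments under the membrane, 1 was called higher and 0 lower. septin5a rose on a dim probe, which was well above background on 5 exercised arrays and 2 non-exercised arrays. Its level was -2.82, -1.33 and -0.97 in exercised fish, against -4.33, -3.58 and -2.07 in non-exercised fish, and 6 of 8 exercised fish lay above every non-exercised fish (1.67 ± 0.37, adjusted p = 0.011). It was not called after normexp correction (adjusted p = 0.116), without background correction (0.0693), with slide 3 as the only exercised slide or as the mean of its probes, the further probe giving 0.53 ± 0.38. septin12 gave -1.05 ± 0.34 (adjusted p = 0.0779), and the other 5 lay between -0.37 and 0.07.

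**Figure D3:**
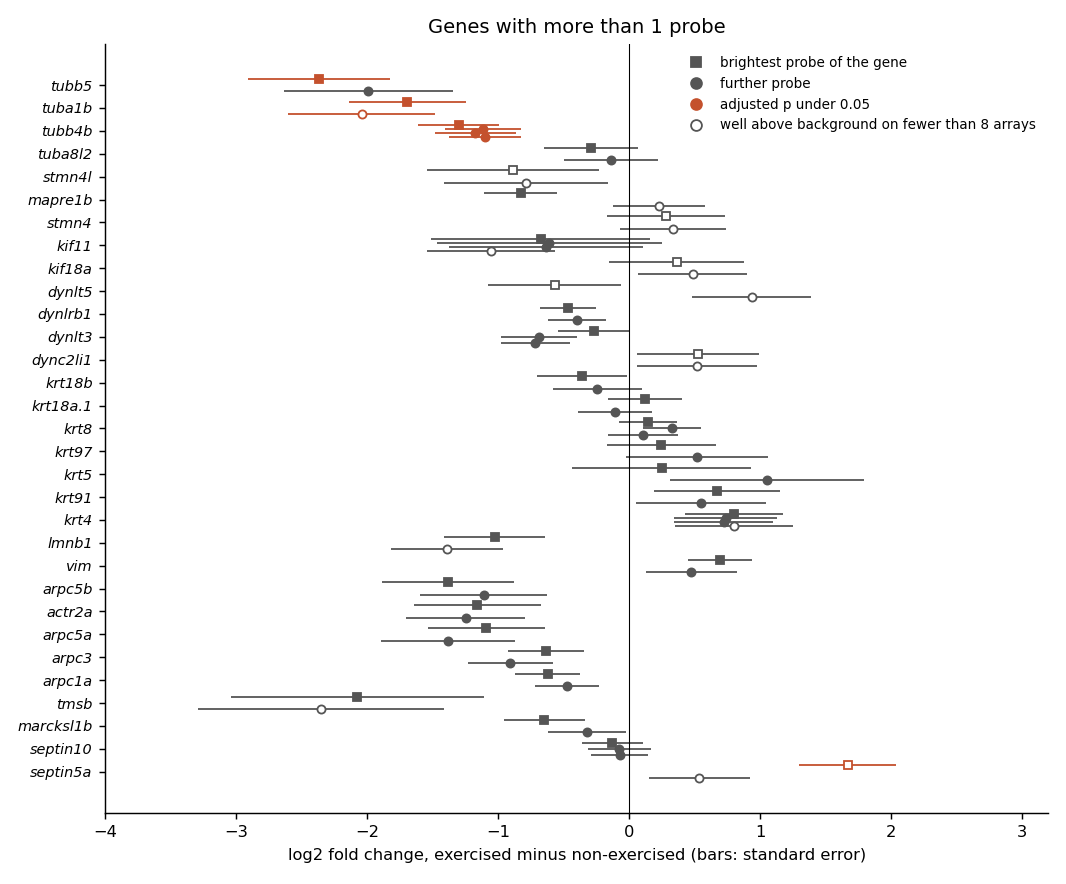
For the 31 member genes with more than 1 probe (71 probes), each symbol is the log2 fold change of a probe, exercised minus non-exercised, with its SE as a bar; squares are the brightest probes, open symbols are probes well above background on fewer than 8 arrays, and called probes are coloured. Probes of a gene mostly lie within their error bars of each other, as the 4 probes of tubb4b and of krt4 do, while those of septin5a, dynlt5 and mapre1b stand apart.

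The genes did not follow each other evenly across fish. For tuba1b, actr3, arpc2, arpc4 and arpc5a the highest exercised fish were 6 and 7, and the lowest non-exercised fish were 1 and 4. arpc4, for example, was 2.72 and 3.15 in exercised fish 6 and 7 and 0.95 to 1.99 in the other exercised fish, against 1.32 and 1.57 in non-exercised fish 1 and 4 and 2.72 to 4.42 in the other non-exercised fish. The summed signal of 10 leukocyte genes with a probe (of 14 listed) followed a similar order. It was 375.3 and 238.2 in exercised fish 6 and 7 and 26.2 to 147.2 in the other exercised fish (median of all 8, 95.2), against 30.8 and 51.5 in non-exercised fish 1 and 4 and 138.7 to 353.2 in the others (median of all 8, 240.5). In that sum, lyz alone reached a log2 level of 8.13 in the highest of 7 exercised fish (median 2.18). Of the exercised sums only that of fish 6 is large enough to hold this level, so its height rests largely on lyz. The order of fish without lyz was not computed. Of the 10 genes, 9 had negative fold changes (median -0.88) and 0 were called. All 10 were well above background on some array, 6 of them on all 16. The list of further actin regulators holds coro1a and lcp1 of these genes as well. The part of these cells in the tubulin and Arp2/3 values was not tested. Other Arp2/3 genes departed from the order of fish given above. Among exercised fish, actr2a was highest in fish 1 (1.02), which had the lowest leukocyte sum. For arpc1b the highest exercised fish were 7 and 3, and for arpc1a, arpc3 and arpc5b they were 6 and 3. Non-exercised fish 1 and 4 were still the lowest for actr2a, arpc1b and arpc5b. tubb4b, arpc5la, pfn2a and tuba8l2 were ordered otherwise. In non-exercised fish 1 and 4, tubb4b had 6.83 and 6.61 and arpc5la had 3.47 and 3.73, all above the median of their group.

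**Figure D4:**
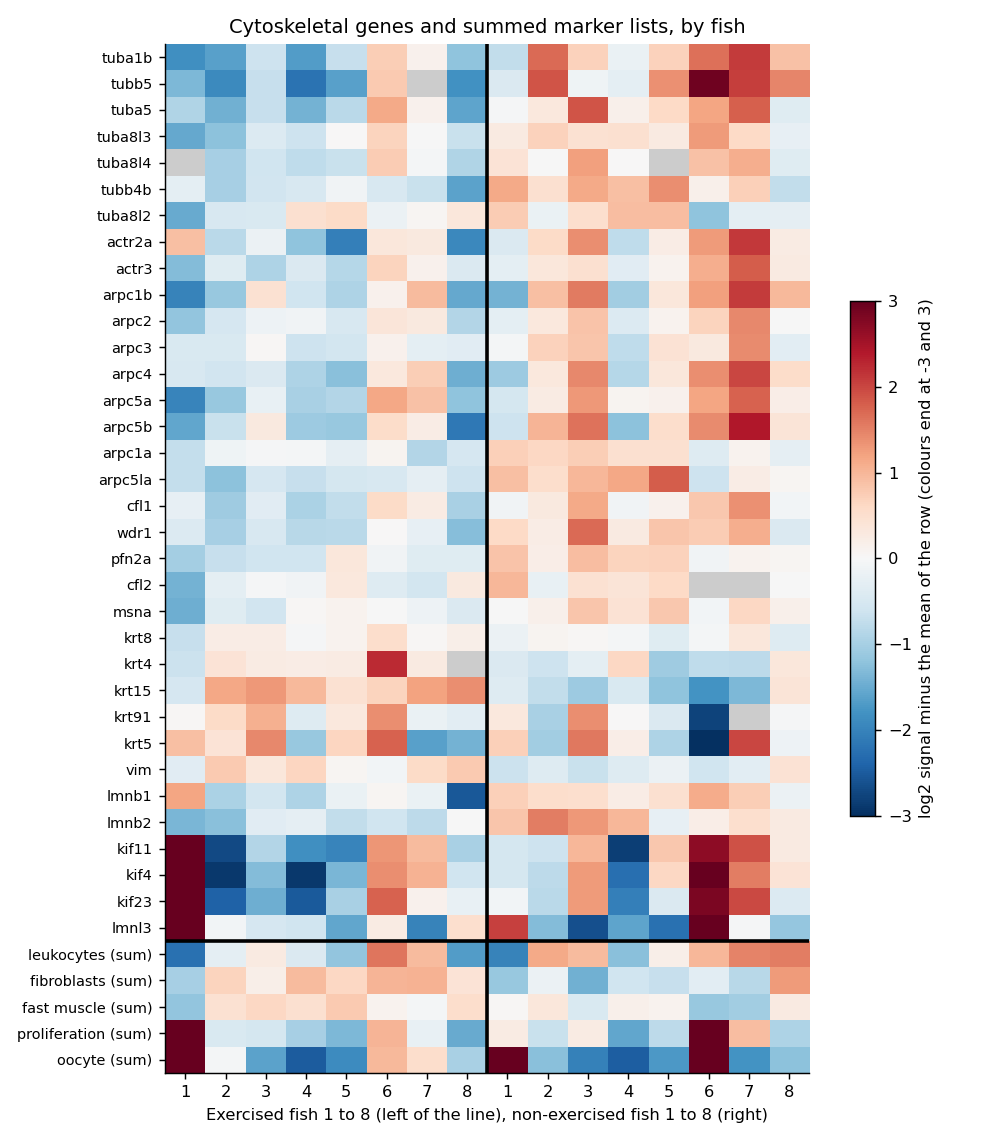
Rows are member genes (brightest probe) and, under the line, summed marker lists; columns are the 8 exercised fish (left) and the 8 non-exercised fish (right), and colour is the log2 signal minus the mean of the row, with outlier spots in grey. The division kinesins and lmnl3 are highest in exercised fish 1 and non-exercised fish 6, where the oocyte sum is 859.7 and 650.6, and several Arp2/3 rows are low, as the leukocyte row is, in exercised fish 1 and 8 and in non-exercised fish 1 and 4.

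Each called gene kept its sign with either exercised slide alone, set against the same non-exercised fish both times. As the genes were picked on these same arrays, the kept signs are no separate support for the calls. The changes were -2.65 and -1.99 for tubb5, -2.29 and -1.10 for tuba1b, -1.23 and -1.37 for tubb4b, -1.48 and -1.21 for lmnb2, -1.42 and -1.10 for arpc5la, -1.31 and -1.21 for wdr1, -1.15 and -0.54 for pfn2a, 1.56 and 1.76 for krt15 and 1.45 and 1.88 for septin5a, with slide 3 and with slide 4. Between the exercised slides themselves, 9 of the 72 genes differed at an adjusted p under 0.05, beside 32.7% of all non-control probes, and between the non-exercised slides 1 of 72, beside 1.75%.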

How the data were processed

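RNA of single fish was labelled with Cy3 and hybridised to a custom zebrafish 4x44K array. The authors extracted the spots with Agilent Feature Extraction 10.7.3.1, per the labels. The deposited files give, per spot, intensities on a linear scale (processed signal, median signal and local background) and flags for outliers, saturation and signal well above background. The deposited table of the authors' comparison (fold changes and p-values) was not used.

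Processed signals were logged to base 2 (log2), and each array was shifted by its 75th percentile. Outlier spots were left out (49 to 892 per array), except in summed marker lists, and none was saturated. Probes were fitted with lmFit and eBayes of limma 3.58.1 in R 4.3.3, with Benjamini-Hochberg adjustment over 43803 probes, and a gene stands for its brightest named probe. The script was tested on simulated data. No filter on dim probes was applied. A probe with no array of a group well above background has only a bound: the mean of the brighter group over the dimmer group's mean at the higher of its own level and the lowest signal well above background of each array.

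RefSeq accessions named 9104 probes, and 34699 have no name here. The members, lists, rules and alternatives were chosen with earlier results of these data known, the oocyte list and the fits without its arrays after the data were seen. The rule for named genes took the members called on any probe, the 4 of highest mean signal in each of the 3 large classes, and tuba1b and the vimentins, with paralogues where a comparison needs them. Probe and gene sequences were not used here. The number of arrays limits the precision.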

Additional observations from a re-analysis of the deposited data

Results flagged for a closer look

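In 5 of 44 groups of fish examined (22 named genes in each group), 1 fish lay further from the rest than Dixon's test allows at the 95% level, which chance does in about 1 of 20 groups. Exercised fish 1 had the lowest krt8 level of its group, 6.11, the next being 6.78. It also had the lowest msna level, 2.64, the next being 3.53. Exercised fish 6 had the highest krt4 level, 6.43, the next being 4.60. Exercised fish 2 had the lowest arpc5la level, 1.32, the next being 1.84. Non-exercised fish 8 had the highest vim level of its group, 3.03, the next being 2.42.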

How the results depend on the processing

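Beside 2 genes called higher and 7 lower, 1 was higher after normexp background correction, without background correction and with probes of a gene averaged. Among 5952 named genes 60 were higher after normexp and 96 without background correction. After normexp 5 members were lower, beside 74 of 5952 named genes, and after the median shift 11, beside 299. With the test limited to probes well above background on 8 or more arrays, 12 of 54 members were lower, beside 382 of 3603 named genes. By the methods' t-test at an unadjusted p under 0.01, 14 were lower, beside 435 of 5952 (7 after Benjamini-Hochberg, beside 241). With the slide as a random block 0 were called in either direction, beside 3 higher and 0 lower of all 5952 named genes. The unadjusted p was under 0.05 for 11 of 72 genes, beside 460 of 5952. With slide 3 as the only exercised slide 0 were called higher, beside 119 of 5920 named genes. With slide 4 alone 6 were (krt15, krt4, krt95, dync2li1, stmn2a and septin5a), beside 1171 of 5952 named genes. The fit with a replicate block called 2 higher and 11 lower, beside 213 and 248 of 5952 named genes, and pfn2a was not called (adjusted p = 0.0855). Fish of the same number correlated by 0.03 to 0.41 (median 0.13) and of different numbers by -0.40 to 0.63 (median -0.01). Of 8 fish, 3 correlated best with their own number. The numbers were not taken as pairs in the main fit, though these values do not exclude some pairing. Without exercised fish 8, of the lowest share of probes well above background, 2 were called higher and 6 lower. For that fit and for the averaged probes, calls over all named genes are not given here. Some named genes without a call in the main fit gained one in other fits, the t-test at an unadjusted p under 0.01 included. tuba5 and vim did so in 6 fits each, msna in 5, arpc1a in 2, and cfl1, krt4 and tuba8l4 in 1 each. Of the named genes, 3 changed sign, none of them called: krt8 to -0.0142 after normexp, -0.000844 without background correction and -0.11 after the median shift, krt5 to -0.00421 after the median shift, -0.0349 with slide 4 alone and -0.33 and -0.27 without 2 and 3 oocyte-rich arrays, and tuba8l2 to 0.0499 with slide 4 alone. The median shift lowers all genes alike, so sign changes under it say nothing of single genes. Where genes were lost because fewer probes were tested (viml, and lmnb2 among others over probes well above background on all 16 arrays), no value is given. The cause of the other changes was not tested. Dim probes limit what can be said of septin5a, lmnb2, tmsb and the stathmins.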

Other observations

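The dimmest members followed the slide. krt95, which was well above background on no array, stood at -3.22 to -1.73 in exercised fish 5 to 8 on slide 4, at -4.51 to -4.06 in exercised fish 1 to 4 on slide 3, and at -4.78 to -3.22 in non-exercised fish. dync2li1, also well above background on no array, had -2.95 to -1.40 on slide 4 and lower values in each fish of slide 3. The negative control spots of slide 4 averaged -2.86 on the same scale, beside -4.66 on slide 3, and -3.99 and -4.31 on the slides of non-exercised fish. Of the 72 genes, 26 were well above background on more non-exercised than exercised arrays and 3 on more exercised arrays. That count was not made over all named genes. Slide 4 had the lowest share of all probes well above background, 30.1%, beside 41.2% to 48.3% on the other slides.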
